A study of Mus musculus with 6 samples.

Results

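RNA-seq counts of 9 genes that mark B cells or carry the signal of their antigen receptor (Cd79a, Cd79b, Ms4a1, Pax5, Blk, Btk, Blnk, Lyn and Cd22) were compared between spleens of NOD.B10 and BL/10 females. The genes were taken by name from a table of 47729 genes, and all 9 were found in it, each under 1 identifier. All 9 passed the filter on low counts and were among the 15330 genes tested. NOD.B10 (NOD.B10Sn-H2b/J) is a strain on the NOD background that carries the H2b haplotype and is studied in mice as a model of primary Sjögren's syndrome (pSS). BL/10, given as C57BL10/SnJ in the strain field, served as the healthy control. The mice carried no transgene or treatment according to the labels, and 3 spleens per strain were sequenced as separate libraries. Whole spleens were used with no sorting of cells, so fewer B cells and less RNA per B cell cannot be told apart in any value given here.

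The labels do not agree on the strain of the libraries. The title and strain field of each sample give the opposite strain to its description and to the name of its column in the count table. Strains were taken from the descriptions and column names, and under the titles all directions below would turn around. The labels give an age of 26 weeks for the 3 NOD.B10 libraries and BL/10 replicate 1, and of 36 weeks for BL/10 replicates 2 and 3, whereas the study's methods give 26 weeks for all spleens. Total counts ran from 15662712 to 18298451 per library. BL/10 replicate 1 stood apart, because genes of pancreas acinar cells took 1.40% of its counts, against 0.204% and 0.011% in the other BL/10 libraries and at most 0.00319% in NOD.B10. Counts of called B cell genes are given with and without this library.

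A B cell binds antigen through membrane immunoglobulin, which cannot signal alone. Cd79a and Cd79b encode the paired chains that carry the signal into the cell, where Src family kinases such as Lyn and Blk phosphorylate them and recruit the kinase Syk. The adaptor Blnk then brings the kinase Btk to phospholipase Cγ2, and calcium and NF-κB signals follow. Cd22 is a lectin receptor that binds sialic acid and dampens this signal once Lyn has phosphorylated it. Ms4a1 encodes CD20, a surface protein of mature B cells, and Pax5 encodes the transcription factor that commits cells to the B lineage and activates Cd79a and Blnk. B cells make up a large part of the spleen. Lyn and Btk are also used by myeloid cells, so their counts in whole spleen do not come from B cells alone.

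Called by edgeR's quasi-likelihood test (adjusted p under 0.05) were none of the 9 genes, against 17.3% of all tested genes (9.11% higher and 8.22% lower in NOD.B10). At an adjusted p under 0.01, 6.75% of all genes were called. One of the 9, Blnk, had an unadjusted p under 0.05, against 34.2% of all genes. DESeq2 also called none of them and 21.7% of all genes, and limma-voom called 1, Blnk, and 21.8% of all genes. At an unadjusted p under 0.05, DESeq2 had 2 of the 9 and limma-voom 3. The share of all genes at an unadjusted p under 0.05 was counted for edgeR only. None was called with RLE normalization (17.5% of all genes) or upper-quartile normalization (17.0%), or with stricter and looser count filters (14.8% and 11.5%). All 9 log2 fold changes were above 0, from 0.066 for Btk to 0.47 for Cd22, with a median of 0.24. The median over all tested genes was 0.0006. The 9 genes share the same libraries and largely the same cells, so their common sign is not 9 separate observations.

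The receptor chains were read at high levels in both strains. Coordinates here and below are those of the whole gene in GRCm38, and counts are over its exons. Cd79a (ENSMUSG00000003379, chromosome 7 from 24897381 to 24902197) had 374, 304 and 503 CPM (the count scaled to the normalized library size) in NOD.B10 replicates 1, 2 and 3, and 434, 238 and 287 CPM in BL/10 replicates 1, 2 and 3. The highest value was that of NOD.B10 replicate 3, but BL/10 replicate 1 was above the other NOD.B10 libraries, and the strains overlapped. The means with SD over the 3 libraries of a strain were 394 ± 101 CPM and 319.8 ± 102 CPM, and the difference did not pass edgeR's quasi-likelihood test (log2 fold change 0.30, standard error 0.26, 95% interval -0.30 to 0.90, adjusted p = 0.447). Cd79b (ENSMUSG00000040592, chromosome 11 from 106311341 to 106314762) had 779, 693 and 797 CPM in NOD.B10 and 876, 474 and 557 CPM in BL/10. Here BL/10 replicate 1 held the highest value of all 6 libraries and BL/10 replicate 2 the lowest, so the spread within BL/10 enclosed that of NOD.B10 (log2 fold change 0.25, standard error 0.22, 95% interval -0.26 to 0.76, adjusted p = 0.457 by edgeR).

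The surface marker and the lineage factor also had BL/10 libraries at both ends of their range. Ms4a1 (ENSMUSG00000024673, chromosome 19 from 11249675 to 11266241), which encodes CD20, had 1278, 1079 and 1305 CPM in NOD.B10 and 1748, 934 and 799 CPM in BL/10. The BL/10 libraries spanned more than a factor of 2, and the NOD.B10 libraries all lay between the highest and the second of them. Ms4a1 had the widest interval of the 9 genes (log2 fold change 0.073, standard error 0.28, 95% interval -0.58 to 0.72, adjusted p = 0.879 by edgeR). Pax5 (ENSMUSG00000014030, chromosome 4 from 44524757 to 44710487) had 363, 274 and 396 CPM in NOD.B10 and 404, 231 and 284 CPM in BL/10, and the highest and the lowest library were again both BL/10 (log2 fold change 0.17, standard error 0.22, 95% interval -0.35 to 0.69, adjusted p = 0.633 by edgeR). Of the exon bases counted for Pax5, 8.6% lie over exons of genes on the other strand (5730488B01Rik and Gm12462), and reads there were not counted for either gene.

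**Figure D1:**
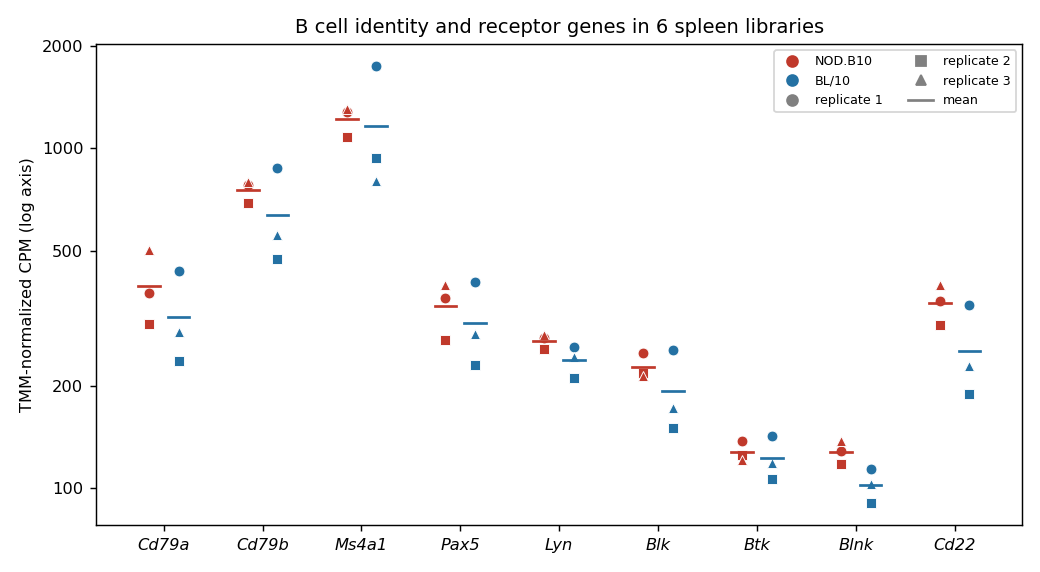
Level of each gene in TMM-normalized CPM (log axis) in 3 NOD.B10 and 3 BL/10 spleen libraries, with 1 point per library, the shape giving the replicate and a bar giving the mean of a strain. BL/10 replicate 1 lies above the other BL/10 libraries for all 9 genes, and Blnk is the gene for which all NOD.B10 points lie above all BL/10 points.

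Of the Src family kinases, Lyn (ENSMUSG00000042228, chromosome 4 from 3678115 to 3813122) acts both in starting the receptor signal and, through Cd22, in limiting it. It had 277, 258 and 282 CPM in NOD.B10 and 260.1, 211 and 244 CPM in BL/10, and BL/10 replicate 1 lay just above NOD.B10 replicate 2 (log2 fold change 0.19, standard error 0.11, 95% interval -0.065 to 0.44, adjusted p = 0.261 by edgeR). Its interval was the narrowest of the 9 genes together with that of Blnk. Blk (ENSMUSG00000014453, chromosome 14 from 63372837 to 63417187), a kinase of the same family used mainly by B cells, had 249.6, 218 and 214 CPM in NOD.B10 and 256, 150.2 and 173 CPM in BL/10. The highest value was in BL/10 replicate 1, and the strains overlapped (log2 fold change 0.24, standard error 0.19, 95% interval -0.21 to 0.69, adjusted p = 0.426 by edgeR). Exons of Gm26857 on the other strand cover 6.09% of the counted bases of Lyn.

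Because Lyn and Btk are also myeloid genes, neutrophil markers were read beside them. The summed level of 15 neutrophil genes was 2475, 2715 and 2353 CPM in NOD.B10 and 6495, 13508 and 11902 CPM in BL/10. Of the 15, 13 (86.7%, against 17.3% of all genes) had an adjusted p under 0.05 in edgeR, all lower in NOD.B10 (median log2 fold change -1.80). The receptor genes Cxcr2 and Csf3r were not called (log2 fold changes 0.58 and -0.0076, adjusted p = 0.106 and 0.987 in edgeR). Of 15 macrophage genes, 2 were called higher and 2 lower (26.7%, against 17.3% of all genes, median log2 fold change -0.028). Their summed levels ran from 4891 to 6127 CPM in NOD.B10 and from 5259 to 6150.0 CPM in BL/10. No marker of either list was at 0 in all libraries. The part of myeloid cells in the levels of Lyn and Btk was not tested.

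Btk (ENSMUSG00000031264, chromosome X from 134542336 to 134583570), the Tec family kinase whose loss impairs B cell development, had 137, 126 and 122 CPM in NOD.B10 and 142, 106 and 119 CPM in BL/10. BL/10 replicate 1 was the highest and BL/10 replicate 2 the lowest library (log2 fold change 0.066, standard error 0.12, 95% interval -0.22 to 0.35, adjusted p = 0.739 by edgeR). Blnk (ENSMUSG00000061132, chromosome 19 from 40928927 to 40994535), the adaptor that links Syk to Btk, had 129, 118 and 137 CPM in NOD.B10 and 114, 90.5 and 103 CPM in BL/10. All NOD.B10 libraries were above all BL/10 libraries, as they were for 20.5% of all tested genes, and the strains did not overlap in either direction for 38.0%. Mean and SD (n = 3) were 128 ± 9.61 CPM and 103 ± 11.7 CPM, and the difference came nearest to the threshold among the 9 genes without passing it (log2 fold change 0.32, standard error 0.11, 95% interval 0.065 to 0.58, adjusted p = 0.0843 by edgeR).

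The inhibitory receptor Cd22 (ENSMUSG00000030577, chromosome 7 from 30865402 to 30880342) had the largest log2 fold change of the 9. It had 355, 303 and 397 CPM in NOD.B10 and 345, 189 and 228 CPM in BL/10. NOD.B10 replicate 2 was below BL/10 replicate 1, and the other libraries of the strains were apart. Mean and SD (n = 3) were 351 ± 47.1 CPM and 254 ± 81.3 CPM, and the difference did not pass edgeR's test (log2 fold change 0.47, standard error 0.22, 95% interval -0.048 to 0.98, adjusted p = 0.179). Exons of Gm29439 on the other strand cover 9.6% of its counted bases, so part of its reads was left out in every library.

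In edgeR's fits, the number of the 9 genes called changed only when BL/10 replicate 1 was left out. Without BL/10 replicate 1, 5 of the 9 genes had an adjusted p under 0.05 in edgeR, all higher in NOD.B10, where 26.3% of all tested genes were called in either direction. These were Cd22 (log2 fold change 0.74, adjusted p = 0.0117), Cd79b (0.54, adjusted p = 0.0213), Blk (0.48, adjusted p = 0.0214), Blnk (0.39, adjusted p = 0.029) and Ms4a1 (0.48, adjusted p = 0.0443). The other 4 did not pass, with Cd79a at 0.57 (adjusted p = 0.0823), Pax5 at 0.41 (adjusted p = 0.124), Lyn at 0.25 (adjusted p = 0.124) and Btk at 0.18 (adjusted p = 0.219) in edgeR. Without BL/10 replicate 1, all BL/10 libraries are labelled 36 weeks and all NOD.B10 libraries 26 weeks. Strain and labelled age cannot be told apart in that fit. In the fits that left out any other single library, none of the 9 was called, where 8.12%, 12.9% and 8.95% of all genes were called without NOD.B10 replicates 1, 2 and 3, and 10.1% and 11.2% without BL/10 replicates 2 and 3. BL/10 replicate 1 is also the one BL/10 library with a labelled age of 26 weeks. With age as a covariate, where the strain difference rests on that library alone, none was called (6.15% of all genes) and 6 of the 9 log2 fold changes were below 0, that of Ms4a1 the farthest (-0.52, adjusted p = 0.148 in edgeR). Labelled age, the pancreas reads and other differences between mice cannot be told apart with 1 such library.

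**Figure D2:**
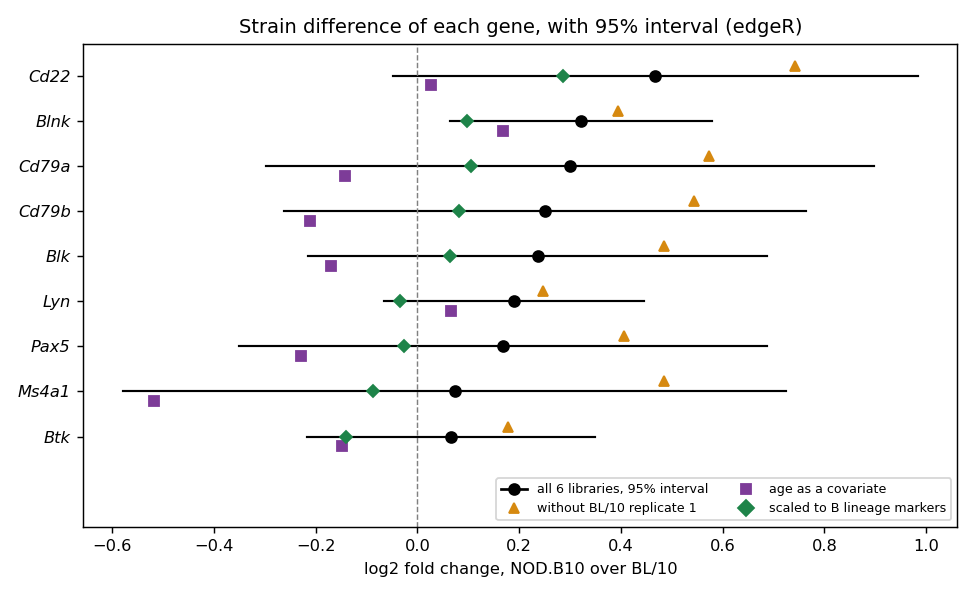
Log2 fold change of NOD.B10 over BL/10 for each gene. Black points and lines are the edgeR estimate from all 6 libraries and its 95% interval, and the colored symbols are the estimates without BL/10 replicate 1, with age as a covariate, and with libraries scaled to B lineage markers. The estimates without BL/10 replicate 1 are the highest for all 9 genes, and those with age as a covariate are below 0 for 6.

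The 9 genes moved together from library to library. In BL/10 replicate 2, 8 of the 9 genes had their lowest value, and the median gene lay -0.46 on the log2 scale from its own mean over the 6 libraries. BL/10 replicate 3 held the remaining lowest value, that of Ms4a1, with a median of -0.26. In BL/10 replicate 1, 5 genes had their highest value and the median was 0.31. NOD.B10 replicate 3 held the other 4 highest values. The medians in NOD.B10 were 0.17, 0.019 and 0.23. The coefficient of variation of Ms4a1 was 10.1% over the NOD.B10 libraries and 44.2% over the BL/10 libraries, and that of Blk was 8.58% and 28.8%. It was larger in BL/10 for all 9 genes, and BL/10 replicate 1 was the highest BL/10 library for each. Over BL/10 replicates 2 and 3 alone, a comparison added after the values were seen, it was 11% for Ms4a1 and 9.82% for Blk. For Lyn it was 10.2%, against 10.4% over all BL/10 libraries. It stayed larger than in NOD.B10 for 6 of the 9 genes and was smaller for 3 (Cd79a, Pax5 and Cd22). For Cd79a it was 13.4%, against 25.6% in NOD.B10. Dropping the highest library tends to lower a spread by itself, so these values do not measure what BL/10 replicate 1 contributed. No test of the spread was made with 3 libraries per strain.

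**Figure D3:**
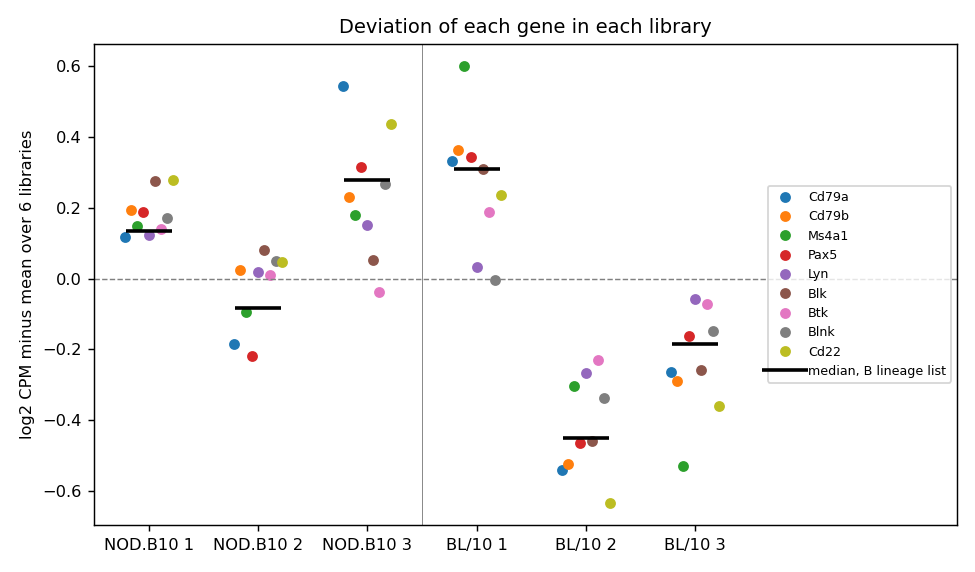
Deviation of each gene from its own mean over the 6 libraries, in log2 CPM, by library. Black bars are the median over the 25 genes of the B lineage marker list. The 9 genes sit below 0 in BL/10 replicates 2 and 3, and the bars follow them.

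The median of a list of 25 other genes of the B lineage (among them Cr2, Fcer2a, Cd74 and Cd24a) followed the same course. Its deviations were 0.31, -0.45 and -0.18 in BL/10 replicates 1, 2 and 3, and 0.13, -0.082 and 0.28 in NOD.B10. Not every gene of the list did so. Cd24a had 1350, 2500 and 2143 CPM in BL/10 and 1168, 1733 and 1002 CPM in NOD.B10. Of the 25 log2 fold changes, 18 were above 0. The libraries were therefore also scaled to this list in place of all genes, an alternative chosen after the values had been seen. On that scale none of the 9 genes was called by edgeR, where 11.5% of all genes were called and the median of all genes shifted to -0.24. The log2 fold changes then ran from -0.14 for Btk to 0.29 for Cd22, with 5 of the 9 above 0. All 9 lay above that shifted median. The BL/10 coefficient of variation of Pax5 went from 28.8% to 1.68% with the scaling, and that of Lyn from 10.4% to 16.5%. The standard errors of the 9 log2 fold changes were nonetheless close, from 0.294 for Blnk to 0.305 for Lyn, with 0.302 for Pax5. The p-values and intervals on this scale therefore do not measure the spread of each gene.

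Cd22 was singled out on this scale after its values were seen. Scaled to the B lineage list it had 324, 321 and 327 CPM in NOD.B10 and 279, 258 and 259.7 CPM in BL/10, and it was the one gene of the 9 whose strains did not overlap. Before this scaling the strains did not overlap for 38.0% of all tested genes, and the share on this scale was not counted. With 3 libraries against 3, any values that do not overlap give p = 0.1 in an exact two-sided permutation test, the smallest it can give. This p was fixed once Cd22 was seen not to overlap, and it adds nothing to that observation. In the scaled fit edgeR's adjusted p for Cd22 was 0.637 (log2 fold change 0.29, 95% interval -0.32 to 0.89). The ratio of Cd22 to Cd79b, both per kilobase of exon, was 0.131, 0.125 and 0.143 in NOD.B10 and 0.113, 0.114 and 0.118 in BL/10. These values did not overlap either, and this was the only ratio given in this report for which that held. The share of gene pairs whose ratios do not overlap between the strains was not counted. The ratio of Cd22 to Ms4a1 was 0.345, 0.348 and 0.377 in NOD.B10 and 0.245, 0.251 and 0.354 in BL/10, and here the strains overlapped, with BL/10 replicate 3 inside the NOD.B10 range. The scaling changes the reference and not the data, so these values describe Cd22 relative to other B cell genes and not its level in the spleen.

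Levels of different genes were compared as CPM per kilobase of the counted exons. The order from high to low was Cd79b, Cd79a, Ms4a1, Blk, Lyn, Cd22, Btk, Pax5 and Blnk. Cd79b had 529 ± 39.1 in NOD.B10 and 444 ± 148 in BL/10 CPM per kilobase (mean and SD, n = 3 per strain), Cd79a had 270.2 ± 69.3 in NOD.B10 and 219 ± 70.2 in BL/10, and Ms4a1 had 197 ± 20.0 in NOD.B10 and 188 ± 83.0 in BL/10. The chain Cd79b was between 1.61 and 2.32 times the level of its partner Cd79a in the 6 libraries. At the low end, Pax5 had 38.9 ± 7.17 in NOD.B10 and 34.6 ± 9.98 in BL/10 CPM per kilobase and Blnk had 21.4 ± 1.60 in NOD.B10 and 17.1 ± 1.96 in BL/10. Neighbors in this order kept their order in all 6 libraries, except for Lyn and Cd22, where Lyn was higher in 3 libraries, and Btk and Pax5, where Btk was higher in 4. The levels per kilobase of these neighbors did not differ beyond their spread. Counted lengths include all annotated exons, and isoforms that use fewer of them would raise the true level per base. They also include the bases under exons of other genes (9.6% for Cd22, 8.6% for Pax5 and 6.09% for Lyn). Reads there were not counted, which lowers the level per kilobase of these genes. The order of Lyn and Cd22 and of Btk and Pax5 is therefore not settled.

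Stretches upstream of the RefSeq start site were on hand for 5 of the 9 genes (Cd79a, Pax5, Btk, Blnk and Cd22). They were searched on both strands for the octamer ATGCAAAT bound by Oct factors, the Ets core AGGAAGT, the E-box CAGGTG and a palindrome typical of EBF1 (TCCC and GGGA with any 2 bases between them), factors known for B cell promoters. Of 32851 stretches of 250 bases before a start in the same table, 1.6% held the octamer, 7.69% the Ets core, 17.2% the E-box and 0.779% the EBF1 palindrome. Those of Cd79a (Ets core and E-box), Blnk (octamer, Ets core and E-box) and Cd22 (E-box and EBF1 palindrome) held more than 1 kind of match. Those of Pax5 and Btk held none of these letters. The 3 stretches with matches are shown because they belong to the receptor chain controlled by Pax5 and to the genes with the largest log2 fold changes. They are given 5′ to 3′ from RefSeq (GRCm38.p6) with the matches in capitals, where CACCTG and ATTTGCAT are the E-box and the octamer read on the other strand, and no match overlaps another. The RefSeq start used here lies within the counted gene, 116, 314 and 1314 bases from its first base for Cd79a, Blnk and Cd22.
Cd79a, chr7:24897247-24897496, plus strand: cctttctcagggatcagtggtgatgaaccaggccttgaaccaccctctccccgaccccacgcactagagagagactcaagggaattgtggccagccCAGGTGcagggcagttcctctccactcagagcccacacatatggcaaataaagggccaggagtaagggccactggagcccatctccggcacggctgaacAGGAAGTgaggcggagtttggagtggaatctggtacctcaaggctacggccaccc
Blnk, chr19:40994222-40994471, minus strand: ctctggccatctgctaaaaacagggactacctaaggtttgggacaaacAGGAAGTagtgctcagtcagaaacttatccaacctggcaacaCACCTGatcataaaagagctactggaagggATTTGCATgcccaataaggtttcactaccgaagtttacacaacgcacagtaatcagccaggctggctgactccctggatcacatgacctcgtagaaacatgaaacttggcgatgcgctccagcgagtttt
Cd22, chr7:30879029-30879278, minus strand: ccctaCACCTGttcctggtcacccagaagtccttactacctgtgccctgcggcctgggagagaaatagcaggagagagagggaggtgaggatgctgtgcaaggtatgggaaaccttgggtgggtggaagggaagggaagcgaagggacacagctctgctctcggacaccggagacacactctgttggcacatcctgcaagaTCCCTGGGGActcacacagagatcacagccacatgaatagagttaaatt
A match of letters is a description of the reference and not a bound site, and the reference is of strain C57BL/6J.

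Of 39 other genes that promote the receptor signal, 4 were called higher and 1 lower in NOD.B10 by edgeR (5 of 39, 12.8%, against 17.3% of all genes), with a median log2 fold change of 0.18. The calcium-dependent transcription factor Nfatc2 (40.1, 34.6 and 41.5 CPM in NOD.B10 and 22.2, 21.9 and 25.2 CPM in BL/10) had the largest of these changes, and its strains did not overlap (log2 fold change 0.74, standard error 0.11, adjusted p = 0.00376 in edgeR). The kinase Fyn (145, 130.3 and 140.5 CPM in NOD.B10 and 97.5, 87.4 and 98.5 CPM in BL/10) and the lipid kinase subunit Pik3cd (276, 248 and 261 CPM in NOD.B10 and 196, 172 and 166 CPM in BL/10) rose by similar amounts, with log2 fold changes of 0.55 and 0.55 (adjusted p = 0.0063 and 0.0114 in edgeR). The calcium release channel gene Itpr2 was also called higher (log2 fold change 0.53, standard error 0.15, adjusted p = 0.0448 in edgeR), and the calcium entry channel gene Orai1 was called lower (log2 fold change -0.46, standard error 0.10, adjusted p = 0.0196 in edgeR). Nfatc2 and Fyn stayed called in each of the 6 fits without a library, Pik3cd in 5, Orai1 in 3 and Itpr2 in 2.

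Other genes that act next to the 9 were not called. Syk, the kinase recruited by Cd79a and Cd79b, had a mean and SD (n = 3) of 594 ± 77.3 CPM with NOD.B10 and 458 ± 78.0 CPM with BL/10 (log2 fold change 0.37, adjusted p = 0.143 in edgeR). Plcg2, the phospholipase that Btk activates, had a log2 fold change of 0.051 (adjusted p = 0.806). Cr2, the complement receptor, had 0.51 (adjusted p = 0.0662). These 3 genes, as well as Ptpn6 and Ebf1 below, were picked as neighbors of the 9 after the values were seen. Without BL/10 replicate 1, 19 of the 39 genes were called, against 26.3% of all genes.

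Of 20 genes that restrain the signal, 5 were called higher and 2 lower in NOD.B10 by edgeR (7 of 20, 35.0%, against 17.3%), with a median log2 fold change of 0.14. The receptor Ceacam1 (6.28, 8.91 and 10.2 CPM in NOD.B10 and 31.1, 36.5 and 33.7 CPM in BL/10) fell by 1.99 on the log2 scale (standard error 0.18, adjusted p = 0.000418 in edgeR). The receptor Cd5 (59.5, 48.7 and 62.5 CPM in NOD.B10 and 24.4, 18.5 and 14.4 CPM in BL/10) rose (log2 fold change 1.57, standard error 0.19, adjusted p = 0.00185 in edgeR), and so did the phosphatase gene Ptpn22 (109, 97.5 and 139 CPM in NOD.B10 and 64.8, 64.6 and 76.1 CPM in BL/10), with log2 fold change 0.75, standard error 0.14, adjusted p = 0.0122 in edgeR. These 3 genes were called in all 6 fits without a library. Pecam1, an adhesion receptor also of endothelium and platelets, and Inpp5d, which encodes the lipid phosphatase SHIP-1, were called higher (log2 fold changes 0.59 and 0.37, adjusted p = 0.0262 and 0.0426 in edgeR), and Inpp5b lower (-0.44, adjusted p = 0.0368). The seventh called gene was the ubiquitin ligase gene Cbl (0.33, adjusted p = 0.0365 in edgeR). Pecam1 stayed called in 2 of the 6 fits without a library, and Inpp5d, Inpp5b and Cbl in 1 each, that without BL/10 replicate 1. Ptpn6, whose product SHP-1 binds Cd22, was not called (log2 fold change 0.10, adjusted p = 0.635 in edgeR).

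Of 19 tested transcription factors that act in B cells, of 20 listed, 3 were called higher and none lower by edgeR (15.8% against 17.3% of all genes), with a median log2 fold change of 0.18. These were Ets1 (690.4, 578 and 802 CPM in NOD.B10 and 505, 303 and 373 CPM in BL/10), with log2 fold change 0.81, standard error 0.21, adjusted p = 0.0344 in edgeR, and Foxo1 and Irf4, with log2 fold changes of 0.57 and 0.53 (adjusted p = 0.0436 and 0.0431 in edgeR). None of the 3 was called when NOD.B10 replicate 1, NOD.B10 replicate 3, BL/10 replicate 2 or BL/10 replicate 3 was left out, and 9 of the list were called without BL/10 replicate 1, against 26.3% of all genes. Ebf1, which acts with Pax5 in setting B cell identity, had 0.18 (adjusted p = 0.562 in edgeR).

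Of the 25 B lineage markers, 1 was called, Ly6d, and it was lower in NOD.B10 (against 17.3% of all genes). It had 166, 125 and 164 CPM in NOD.B10 and 738, 455 and 386 CPM in BL/10, a difference with log2 fold change -1.80, standard error 0.25, adjusted p = 0.00319 in edgeR, and it was called in all 6 fits without a library. Ly6d is a surface protein that marks early B lineage cells. The list's highest genes were Cd74, the chaperone of class II molecules, with means of 3427 ± 549 CPM and 2844 ± 532 CPM, and Cd24a, with 1301 ± 383 CPM and 1998 ± 588 CPM for NOD.B10 and BL/10 (± SD, n = 3). Neither was called (log2 fold change 0.27, standard error 0.19, adjusted p = 0.347 and log2 fold change -0.62, standard error 0.28, adjusted p = 0.157 in edgeR), and Cd24a is also abundant in red cell precursors. Without BL/10 replicate 1, 12 of the 25 were called, against 26.3% of all genes.

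**Figure D4:**
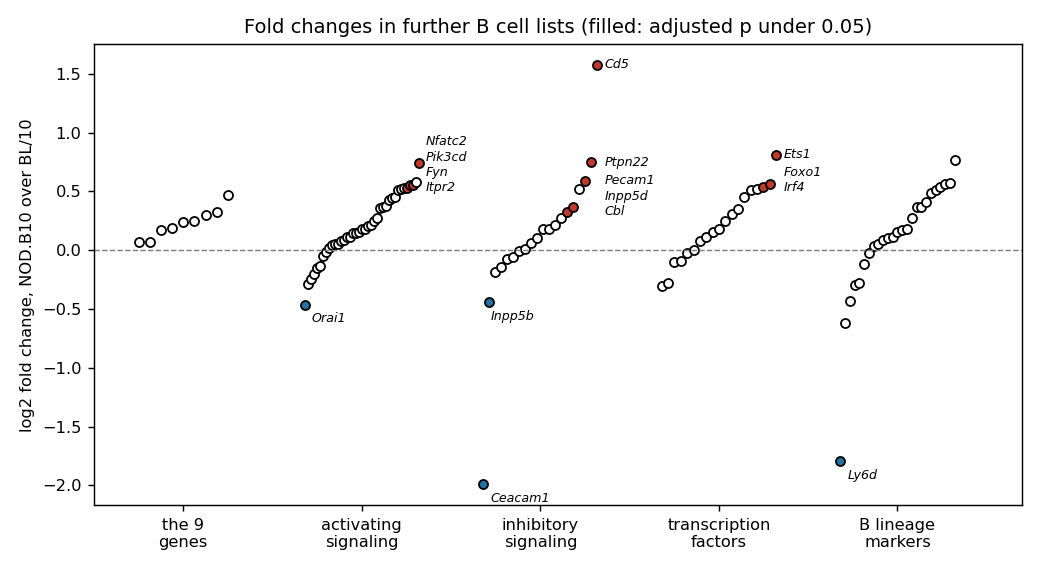
Log2 fold change (NOD.B10 over BL/10) of the 9 genes and of each tested gene in 4 further B cell lists, 1 point per gene ordered by value. Filled points have an adjusted p under 0.05 in edgeR (red higher, blue lower in NOD.B10), and none of the 9 genes is filled.

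Several called genes of these lists are also used outside B cells, and markers of some such cells differed between the strains. Of all tested genes, edgeR called 17.3% in either direction, and 34.2% had an unadjusted p under 0.05. Of 18 T cell markers, 16 were called higher in NOD.B10 (median log2 fold change 1.19), with a summed level of 1345 to 1903 CPM in NOD.B10 and 644 to 845 CPM in BL/10. Cd8a and Cd8b1 of this list were not called (log2 fold changes 0.16 and -0.40, adjusted p = 0.528 and 0.19 in edgeR). Cd5 is itself on that list, and T cells also use Nfatc2, Fyn, Pik3cd, Ptpn22, Ets1 and Foxo1. Ceacam1, which was lower, is also used by neutrophils. Of 12 plasma cell markers, Irf4 among them, 8 were called higher (3721 to 4239 against 2413 to 3014 CPM). Of 10 mast cell and platelet markers, 5 were called lower (585 to 843 against 770.3 to 1339 CPM). No dendritic cell marker of 11 was called (4 at an unadjusted p under 0.05 in edgeR), with 452 to 546 against 479 to 521 CPM. For 13 tested erythroid genes of 14 listed, 1 was called lower, and the summed levels were 42147, 49551 and 27659 CPM in NOD.B10 and 30361, 60479 and 68905 CPM in BL/10 replicates 1, 2 and 3. Of 15 pancreas acinar genes, all 12 tested were called lower, with 22.5 to 31.5 CPM against 13873, 2146 and 113 CPM in BL/10 replicates 1, 2 and 3. The part of these cells in the values of the B cell genes was not tested. BL/10 replicates 2 and 3, the libraries lowest in the 9 genes, had the highest neutrophil and erythroid sums of the 6.

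**Figure D5:**
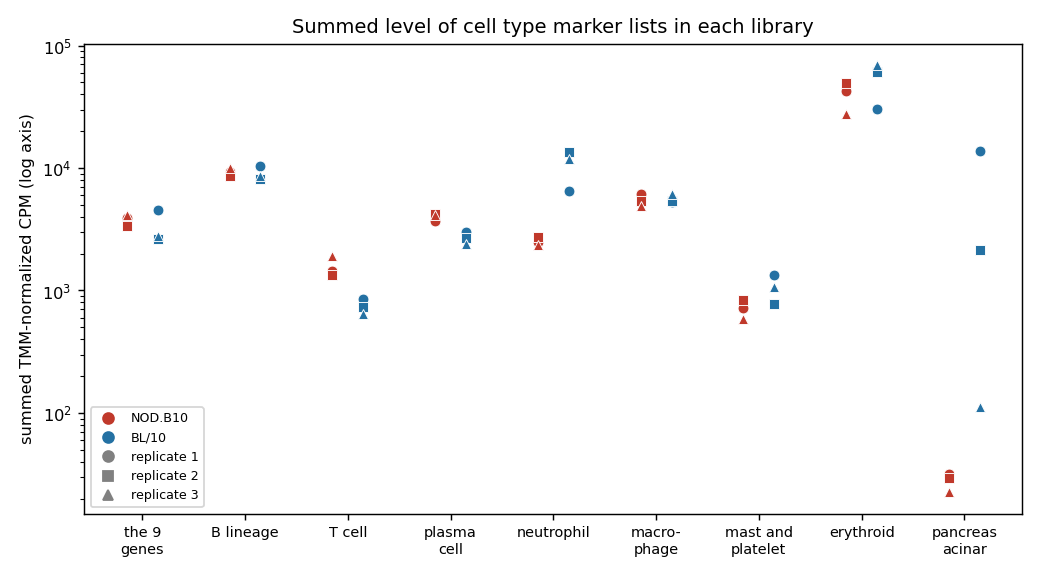
Summed TMM-normalized CPM (log axis) of the 9 genes and of marker lists of other cell types, with 1 point per library and the shape giving the replicate. The T and plasma cell lists are higher and the neutrophil list is lower in all NOD.B10 libraries than in all BL/10 libraries, whereas the 9 genes overlap.

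Among 14140 other genes with a mean of at least 1 CPM, those whose log2 CPM followed the mean course of the 9 genes most closely over the 6 libraries were Grcc10, Eml4, Pgap1, Zfp318 and Cdc14b, with Pearson's r from 0.991 to 0.996. Zfp318, a nuclear protein needed for membrane IgD, had 71.2, 62.8 and 75.6 CPM in NOD.B10 and 79.2, 47.6 and 51.0 CPM in BL/10. Eml4 had 103, 92.2 and 104 CPM and 104, 76.8 and 83.1 CPM. None of these 5 genes was in a B cell list or differed between the strains at an adjusted p under 0.05 in edgeR. Of the 14140 genes, 393 had an r over 0.9. With 6 libraries, these values are given as a description. Of the 9 themselves, Cd79b followed the mean of the other 8 most closely (r = 0.989) and Ms4a1 least (r = 0.820).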

How the data were processed

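Whole spleens from 3 females of each strain gave 1 RNA library each, read single-end on an Illumina HiSeq 2500. The authors deposited raw counts per gene, without normalization, together with a gene length. The paper names Tophat2 and mm10, the submitters' processing notes name HISAT2 2.0.5 and GRCm38, and the header names featureCounts 1.5.1 on exons of Ensembl 84, without strand and without reads shared by several genes. Symbols from GENCODE M21 matched 47224 of 47729 identifiers.

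Counts were fitted with edgeR 4.0.16 in R 4.3.3 (filterByExpr, TMM, quasi-likelihood test, Benjamini-Hochberg over 15330 genes, threshold 0.05, BL/10 as reference). DESeq2 1.42.0 and limma 3.58.1 were alternatives. Standard errors were derived from the fold change and F. Nothing in the labels separates animals from technical repeats beyond the term biological replicate, and the smallest chi-square per degree of freedom between replicates of a strain was 13.5, above counting error. The p-values of the main fit measure the spread between these samples. One BL/10 column was matched to its sample by library number and strain, since its suffix differs from the description. A count of 3 corresponds to 0.164 to 0.192 CPM, a limit that covers counting error only. In simulated counts of this comparison, 86 of 100 genes changed by 1 on the log2 scale and 99 of 100 changed by 2 were found among 14988, with 9 false calls. Only genes above a low level were changed, and noise was drawn independently for each gene. Changes under 1 were not simulated, so this does not cover differences as small as those of the 9 genes.

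The 9 genes, the lists and the tests were chosen with earlier results of these data known. Lists came from general knowledge. Genes named from the further lists were the 6 largest called changes per list, or the 2 highest genes where fewer than 2 passed, and the 5 genes most alike in course.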

Additional observations from a re-analysis of the deposited data

How the results depend on the processing

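Over 144 refits of the 9 genes (16 alternatives each), 124 kept the direction and the side of the threshold, 6 passed the threshold and 14 turned the direction of a gene that was not called. With age as a covariate the log2 fold changes were -0.14 for Cd79a, -0.21 for Cd79b, -0.52 for Ms4a1, -0.23 for Pax5, -0.17 for Blk and -0.15 for Btk, and the medians were -0.15 for the 9 genes, 0.047 for the activating list, -0.048 for the inhibitory list, -0.035 for the transcription factor list and -0.15 for the B lineage list, with 1, 2, 0 and 2 genes called in the activating, inhibitory, transcription factor and B lineage lists. In this fit the strain difference rests on BL/10 replicate 1 by construction. Scaled to B lineage markers, the values were -0.087 for Ms4a1, -0.026 for Pax5, -0.035 for Lyn and -0.14 for Btk. Against 5, 7, 3 and 1 genes called in the 4 further lists, limma-voom called 12 activating genes, 7 transcription factors and 6 B lineage genes, as well as Blnk among the 9 (1 gene, log2 fold change 0.35, adjusted p = 0.0455). DESeq2 called 12, 6 and 4 of these lists. The share of all genes called was 21.8% with limma-voom and 21.7% with DESeq2, against 17.3% in the main fit. With no filter beyond 1 count, 9 activating and 4 B lineage genes were called (11.5% of all genes). Without immunoglobulin, hemoglobin and pancreas genes, 2 B lineage genes were called (17.9% of all genes). At an adjusted p under 0.01, 2 activating genes, 2 inhibitory genes and 0 transcription factors were called, against 6.75% of all genes. The cause of these shifts was not tested. Leaving out each library in turn gave 0 to 5 called genes of the 9, 2 to 19 in the activating, 3 to 10 in the inhibitory, 0 to 9 in the transcription factor and 1 to 12 in the B lineage list, the most each time without BL/10 replicate 1. The log2 fold changes ran from -0.15 to 0.48 for Ms4a1, -0.0015 to 0.41 for Pax5, -0.027 to 0.18 for Btk, 0.077 to 0.54 for Cd79b, 0.085 to 0.48 for Blk, 0.24 to 0.39 for Blnk, 0.086 to 0.57 for Cd79a, 0.11 to 0.25 for Lyn and 0.29 to 0.74 for Cd22, and the median of the 9 ran from 0.085 to 0.48. Over all genes, 17.3% were called, against 6.15% with age as a covariate, 11.5% scaled to B lineage markers and 8.12% to 26.3% without a library.

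The replicate numbers do not mark a shared cage or day in the labels, and the deviations of same-numbered libraries had correlations of 0.032, 0.17 and -0.084. With the replicate number as a block, none of the 9 genes was called (lowest adjusted p = 0.0525, Blnk), with 8 activating genes, 5 transcription factors and 3 B lineage genes called and 18.8% of all genes. Each of the 9 genes had at least 1350 counts in every library.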

Other observations

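Ratios between the 9 genes within a library do not depend on how libraries are scaled. The level per kilobase of Cd79b over that of Cd79a was 2.12, 2.32 and 1.61 in NOD.B10 replicates 1, 2 and 3 and 2.05, 2.03 and 1.97 in BL/10 replicates 1, 2 and 3. The BL/10 libraries, which differed most in level, were thus close in this ratio, and NOD.B10 replicate 3 was the lowest of the 6. The ratio of Ms4a1 to Cd79b was 0.380, 0.360 and 0.379 in NOD.B10 and 0.462, 0.456 and 0.332 in BL/10, where replicate 3 was the lowest. The ratio of Lyn to Blk was 0.673, 0.717 and 0.802 in NOD.B10 and 0.618, 0.855 and 0.859 in BL/10, and it was the lowest in BL/10 replicate 1. The strains overlapped in these 3 ratios.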
